A study of Rattus norvegicus with 18 samples.

Results

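Interferon beta given alone to cultured rat astrocytes was compared with the PBS control by RNA sequencing. The groups were taken by their labels: 3 libraries of cells kept with interferon beta (IFNb) and 3 libraries of cells kept with PBS (Control), 6 of the 18 libraries and 2 of the 6 groups of the series. All were primary astrocytes from postnatal day 5 rat brain, purified by immunopanning, a method that holds cells on antibody-coated dishes, and harvested after 24 h. The other groups used here for comparison were interferon gamma (IFNg), a mix of TNFa, IL1a and C1q (TIC), and IFNb together with TIC, each with 3 libraries. The labels state 1000 U/ml IFNb, while a legend inside the workbook lists 3 ng/ml for it, so the dose was not settled. Nothing in the labels ties a library to its own culture, litter or animal. Every p-value here therefore reflects the spread among 3 libraries per group, pooled over the 6 groups, which may be technical.

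Interferon beta is a type I interferon, a cytokine that cells release when they sense viral nucleic acid. It binds the receptor made of IFNAR1 and IFNAR2, whose kinases JAK1 and TYK2 phosphorylate STAT factors, and these join IRF9 into the factor ISGF3. ISGF3 binds the interferon-stimulated response element (ISRE) in the promoters of interferon-stimulated genes. Interferon gamma uses another receptor and acts mainly through the gamma-activated sequence (GAS). Astrocytes both make and respond to type I interferon during viral infection and inflammation of the brain.

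The values are FPKM (fragments scaled to transcript length and to mapped fragments) for 10434 rows, of which 10296 named genes had 1 FPKM or more in at least 3 of the 18 libraries and were tested. Log2 changes are on the log2(FPKM + 1) scale, which understates the change of genes with low values, and a gene was called where its Benjamini-Hochberg adjusted p from limma was under 0.05. Read counts were not used here, so the depth behind each value is unknown. The FPKM of the IFNb and Control libraries summed to 505768 to 542909 per library. Astrocyte genes were well measured in both groups. S100b, a calcium-binding protein of astrocytes, had 913, 844 and 872 FPKM in IFNb libraries, against 1304, 1307 and 1443 FPKM in Control libraries. Aldh1l1, a folate enzyme used as an astrocyte marker, had 83.2, 81.97 and 84.4 FPKM in IFNb libraries, against 58.9, 47.3 and 52.2 FPKM in Control libraries. Of 16 listed microglia markers 4 were measured and 0 of these were called, while Cx3cr1, Csf1r, Itgam and Ptprc were among the 12 not analysed here. The summed level of these 4 was 47.1 to 61.7 FPKM in IFNb libraries and 31.5 to 55.1 FPKM in Control libraries, most of it Cd68, which passed the test with median-ratio scaling only (adjusted p = 0.049). The part of microglia in the results was not tested.

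IFNb changed 3909 of the 10296 genes (38.0%) against Control. Of these, 912 (8.86%) were higher and 2997 (29.1%) were lower. At a log2 change of 1 or more, 305 genes (2.96%) were higher, and at -1 or less 184 genes (1.79%) were lower. The higher genes moved much further than the lower ones. A log2 change of 2 or more was found in 176 called genes, of 4 or more in 74, of 6 or more in 29 and of 8 or more in 7. By contrast, only 8 called genes had a log2 change of -2 or less, and 1653 of the 2997 lower genes lay above -0.5. All 3 IFNb libraries lay above all 3 Control libraries for 1041 genes (10.1%) and below them for 3635 genes (35.3%), to be read beside the 38.0% of genes called.

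The count of lower genes depended on how libraries were scaled. The median log2 change of all genes tested was -0.16 in the FPKM as deposited and -0.03 after median-ratio scaling, which sets the typical gene equal between libraries. With that scaling 1473 genes were higher and 1641 lower, so that 47.3% of the called genes were higher, against 23.3% in the FPKM as deposited. The 305 higher genes took 11.1%, 11.0% and 11.4% of the summed FPKM in the IFNb libraries, against 0.979%, 0.963% and 0.941% in the Control libraries. In bulk RNA, fewer cells of a kind and less RNA per cell cannot be told apart, and where a list's count of lower genes changed with that scaling, both counts are given below. List counts from the FPKM as deposited are to be read beside 8.86% higher and 29.1% lower among all genes. Those with median-ratio scaling are to be read beside 1473 higher and 1641 lower of 10296 genes.

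**Figure D1:**
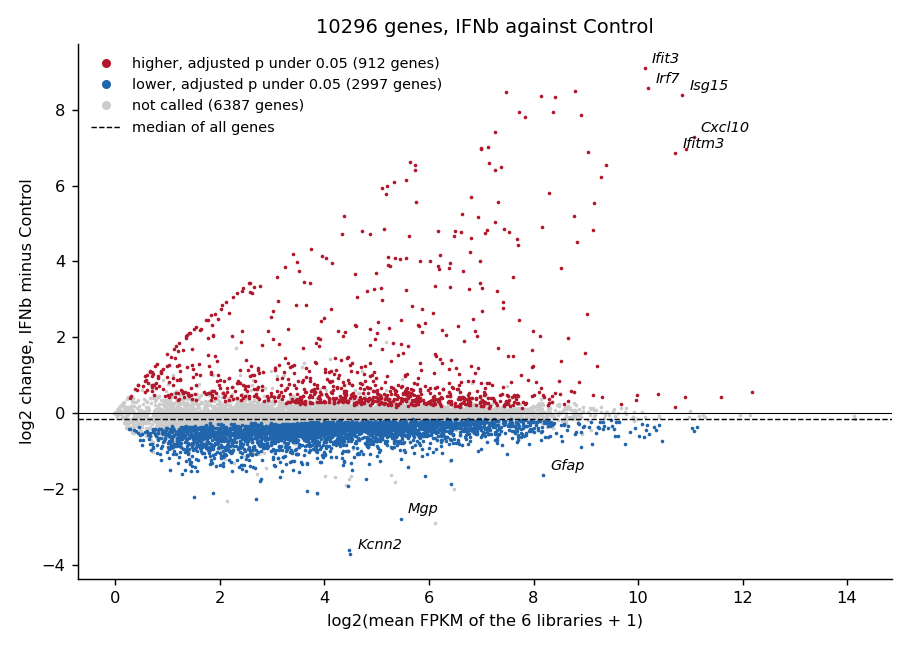
Log2 change (IFNb minus Control) of each of 10296 genes against its level, the log2 of its mean FPKM over the 6 libraries plus 1, with called genes in red (912 higher) and blue (2997 lower) and the median of all genes as a dashed line at -0.16. Higher genes reach a log2 change of 9.09 (Ifit3), while few lower genes pass -2.

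The strongest responders were low in Control libraries, and several were among the most abundant transcripts in IFNb libraries. Ifit3, which binds viral RNA together with Ifit1, had 2021, 2258 and 2416 FPKM in IFNb libraries, against 7.29, 4.19 and 0.578 FPKM in Control libraries. Isg15, a ubiquitin-like protein that is joined to other proteins, had 4017, 3396 and 3586 FPKM in IFNb libraries, against 13.1, 10.6 and 7.15 FPKM in Control libraries. Irf7, a transcription factor for the interferon genes themselves, had 2451, 2269.8 and 2289 FPKM in IFNb libraries, against 8.02, 5.47 and 2.995 FPKM in Control libraries. The groups were far apart for all 3 genes, with log2 changes of 9.09 (SE 0.40, adjusted p = 5.4e-12), 8.38 (SE 0.17, adjusted p = 6.5e-17) and 8.57 (SE 0.23, adjusted p = 2.7e-15). By mean FPKM, Isg15 ranked 8 of the genes tested in IFNb and 6176 in Control, and Irf7 ranked 13 and 7547. Cxcl10, a chemokine for T cells, ranked 5 in IFNb and 3451 in Control. Of the 100 genes with the highest mean FPKM in IFNb, 23 had been called higher by a log2 change of 1 or more. The Control libraries differed among themselves at these low levels: Ifit3 was lowest in Control 3, and its log2 change carried a larger SE than those of Isg15 and Irf7.

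Oas1a, an enzyme that makes 2′-5′ oligoadenylate to activate RNase L, had 585, 533 and 559 FPKM in IFNb libraries, against 1.85, 0.699 and 0 FPKM in Control libraries. Ifit1 had 672, 679 and 675 FPKM in IFNb libraries, against 1.82, 1.54 and 0.278 FPKM in Control libraries, and Ifit2 had 902, 1014 and 945 FPKM in IFNb libraries, against 4.66, 3.52 and 1.68 FPKM in Control libraries. Usp18, the protease that removes Isg15 and restrains the type I receptor, had 688, 651 and 644 FPKM in IFNb libraries, against 2.54, 1.83 and 0.937 FPKM in Control libraries. In each of these genes the Control libraries sat near 0, and Control 3 was the lowest of them. Lgals9, a galectin, had 977, 876 and 799.6 FPKM in IFNb libraries, against 2.42, 2.03 and 0.4403 FPKM in Control libraries. RGD1309362 was listed at 0 in all 3 Control libraries and had 307, 411 and 346 FPKM in IFNb libraries, so no fold is given (adjusted p = 1.2e-19). Oasl2 had 435, 411 and 406 FPKM in IFNb libraries, against 1.73, 0.763 and 0 FPKM in Control libraries, MGC108823 had 356, 588 and 426 FPKM in IFNb libraries, against 1.78, 1.204 and 0.324 FPKM in Control libraries, and Ifi47, an immunity-related GTPase, had 272, 301 and 340.3 FPKM in IFNb libraries, against 1.36, 0.944 and 0.262 FPKM in Control libraries. No IFNb library overlapped a Control library in any of these, which was a condition for choosing them. The Ifit, Oas and RT1 families include nearly identical sequences. How reads were divided among such copies is unknown, so the level of any 1 copy is uncertain.

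**Figure D2:**
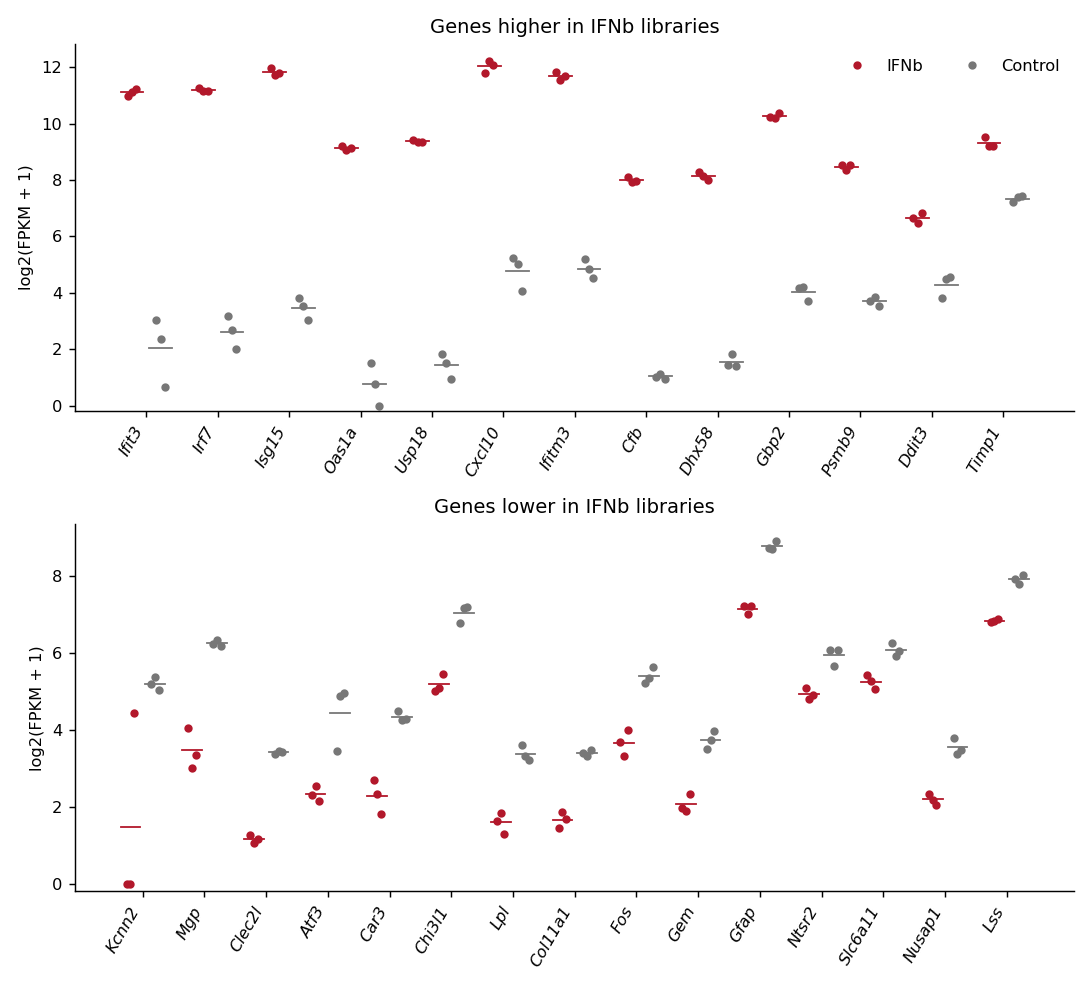
Levels of genes higher (top) and lower (bottom) in IFNb than in Control, as log2(FPKM + 1) on the vertical axis, with each library as a point and the group mean as a line (3 libraries per group, IFNb left of Control for each gene). In the upper panel all IFNb points lie above all Control points, and in the lower panel Kcnn2 shows 2 IFNb libraries at 0 and 1 at 20.7 FPKM.

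Promoter sequences are shown for the strongest responders, since the ISRE is the element through which ISGF3 acts. The sequences are from RefSeq (build GRCr8) and run 5′ to 3′ on the gene's own strand, with 250 bases before and 50 after the annotated start. Capitals mark matches to the ISRE core GAAANNGAAA, searched on both strands and read as TTTCNNTTTC where it lies on the other strand, and in Ifi47 matches to the GAS core TTCNNNGAA, which reads the same on both strands. The windows are chr1:241527076-241527375 (plus strand) for Ifit3, chr1:205799974-205800273 (minus strand) for Irf7, chr10:64428021-64428320 (minus strand) for Lgals9, chr12:41330216-41330515 (plus strand) for Oas1a, chr12:47383136-47383435 (minus strand) for Oasl2 and chr10:33798494-33798793 (plus strand) for Ifi47.
Ifit3: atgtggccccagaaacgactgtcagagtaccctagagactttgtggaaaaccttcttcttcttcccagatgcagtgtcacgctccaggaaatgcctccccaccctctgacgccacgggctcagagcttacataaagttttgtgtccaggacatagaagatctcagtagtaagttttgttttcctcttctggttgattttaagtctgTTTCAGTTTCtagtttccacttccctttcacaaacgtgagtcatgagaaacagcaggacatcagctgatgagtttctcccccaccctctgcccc
Irf7: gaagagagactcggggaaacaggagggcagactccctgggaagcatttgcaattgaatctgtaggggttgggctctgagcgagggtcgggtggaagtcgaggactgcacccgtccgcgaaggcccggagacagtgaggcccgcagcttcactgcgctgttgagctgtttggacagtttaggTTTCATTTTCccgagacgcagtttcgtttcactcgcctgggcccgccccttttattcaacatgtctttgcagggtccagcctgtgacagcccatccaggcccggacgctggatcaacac
Lgals9: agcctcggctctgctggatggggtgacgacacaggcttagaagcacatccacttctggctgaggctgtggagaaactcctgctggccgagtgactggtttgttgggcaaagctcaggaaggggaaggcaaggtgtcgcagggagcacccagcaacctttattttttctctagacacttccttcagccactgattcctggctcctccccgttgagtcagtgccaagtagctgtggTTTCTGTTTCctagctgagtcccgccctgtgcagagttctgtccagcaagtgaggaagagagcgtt
Oas1a: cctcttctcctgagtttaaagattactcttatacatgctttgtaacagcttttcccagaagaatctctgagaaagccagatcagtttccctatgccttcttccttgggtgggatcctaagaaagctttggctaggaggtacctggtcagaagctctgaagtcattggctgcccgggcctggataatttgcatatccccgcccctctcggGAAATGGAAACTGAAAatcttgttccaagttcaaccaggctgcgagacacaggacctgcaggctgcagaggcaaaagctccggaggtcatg
Oasl2: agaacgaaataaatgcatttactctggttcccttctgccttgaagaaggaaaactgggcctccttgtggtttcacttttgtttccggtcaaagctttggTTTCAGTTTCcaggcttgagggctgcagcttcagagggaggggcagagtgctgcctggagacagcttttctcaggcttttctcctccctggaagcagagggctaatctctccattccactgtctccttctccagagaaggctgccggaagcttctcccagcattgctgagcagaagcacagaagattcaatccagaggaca
Ifi47: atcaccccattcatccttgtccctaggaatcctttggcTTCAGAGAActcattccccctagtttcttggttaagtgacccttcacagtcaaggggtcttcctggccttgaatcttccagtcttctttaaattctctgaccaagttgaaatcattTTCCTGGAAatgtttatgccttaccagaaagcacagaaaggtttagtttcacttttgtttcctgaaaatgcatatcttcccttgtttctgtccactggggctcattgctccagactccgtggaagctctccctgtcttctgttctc
The first base of the match stood at -44 from the start in Ifit3, at -69 in Irf7, at -16 in Lgals9 and at -151 in Oasl2. Oas1a held 2 overlapping matches, at -41 and -35, and also 1 GAS core, left in lower case. Ifi47 held no ISRE core in this window, and its 2 GAS cores began at -212 and -96.

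The share of promoters with an ISRE core followed the size of the change. A promoter with a symbol listed once was found for 7840 of the 10296 genes tested, and 226 of these (2.88%) held the ISRE core, against 3.74% of 24206 promoters in the whole table. Among genes called higher by a log2 change of 4 or more, 29 of the 50 with a promoter (58.0%) held it. The share was 22 of 81 (27.2%) at a log2 change of 2 to 4, 11 of 97 (11.3%) at 1 to 2 and 23 of 467 (4.93%) below 1. It was 106 of 4848 (2.19%) among genes not called and 34 of 2170 (1.57%) among genes lower by less than 1, while 1 of 127 (0.787%) held it among genes lower by 1 or more. Of the 29 genes, 12 held a core that began 50 to 1 bases before the start and 12 one that began 150 to 51 bases before it. The GAS core stood in 6.40% of the promoters of genes tested and in 8 of 50 (16.0%) of those higher by 4 or more. Both motifs were found together in 128 promoters of the whole table, and they overlapped in 13. A match is a description of the letters in this window and not a mapped binding site.

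**Figure D3:**
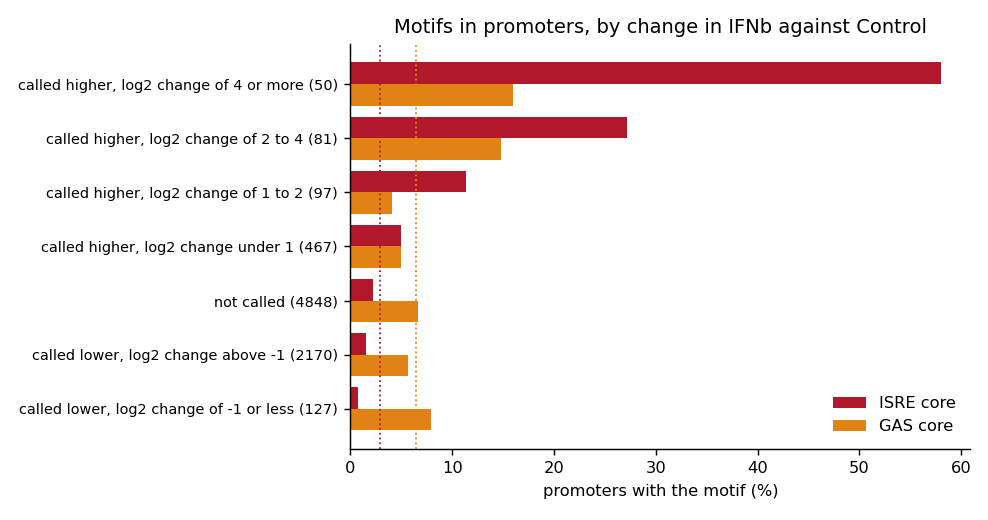
Percentage of promoters with an ISRE core (red) or a GAS core (orange) by the gene's change in IFNb against Control, with the number of promoters in brackets and dotted lines at the shares over all genes tested (2.88% and 6.40%). The ISRE share is 58.0% among the strongest responders and 0.787% among genes lower by 1 or more.

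The measured receptor chain and the kinases did not pass the test, while Stat2 and Irf9 of the factor they activate rose. Of 8 measured receptor and kinase genes, 0 were called, and Ifnar2, the other chain of the type I receptor, was not among them. This compares with 38.0% of all genes. At an unadjusted p under 0.05, 4869 of all genes tested differed, and with median-ratio scaling 1 of the 8, Ifngr1, was higher (log2 change 0.31, adjusted p = 0.0078). Ifnar1, the first chain of the type I receptor, had 15.4, 14.9 and 12.3 FPKM in IFNb libraries, against 18.7, 22.8 and 19.2 FPKM in Control libraries (log2 change -0.48, SE 0.92, adjusted p = 0.71). All 3 IFNb values of Ifnar1 lay below the Control values, and its SE, taken from all 18 libraries, was larger than the change. Other groups entered that SE with uneven values, at 20.3, 0.799 and 18.4 FPKM in IFNg libraries and 0.558, 32.4 and 25.3 FPKM in TIC libraries. With IFNb and TIC, Ifnar1 had 0.229, 0.471 and 0.397 FPKM. That Ifnar1 was not called therefore does not show an unchanged level. Jak1 had 50.2, 48.5 and 50.8 FPKM in IFNb libraries, against 43.7, 51.1 and 53.2 FPKM in Control libraries, and Tyk2 had 6.36, 5.49 and 6.62 FPKM in IFNb libraries, against 6.32, 4.94 and 7.302 FPKM in Control libraries. The groups overlapped for both kinases. Stat2 had 319, 289 and 295 FPKM in IFNb libraries, against 36.2, 39.5 and 40.97 FPKM in Control libraries (log2 change 2.92, SE 0.07, adjusted p = 2.5e-16). Irf9 had 244, 237 and 207 FPKM in IFNb libraries, against 21.6, 19.8 and 19.5 FPKM in Control libraries (log2 change 3.43, SE 0.09, adjusted p = 3.3e-15). Both genes were thus higher in every IFNb library than in any Control library. Stat3, which carries interleukin 6 family signals, was lower (log2 change -0.34, adjusted p = 1.8e-04), and remained so with median-ratio scaling at -0.20 (adjusted p = 0.014).

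Among 17 measured STAT and SOCS genes, 4 were higher and 4 lower, with a median log2 change of -0.16, equal to that of all genes, and with median-ratio scaling 5 were higher and 3 lower. Socs1, the inhibitor of JAK kinases induced by interferon, had 21.1, 22.3 and 31.5 FPKM in IFNb libraries, against 4.55, 3.2999 and 3.48 FPKM in Control libraries (log2 change 2.43, SE 0.24, adjusted p = 4.8e-07). Socs3, the inhibitor of the interleukin 6 receptor, had 11.6, 10.4 and 8.79 FPKM in IFNb libraries, against 15.3, 10.3 and 15.96 FPKM in Control libraries and was not called (adjusted p = 0.078). Cish, a further inhibitor of this family, fell (log2 change -0.79, adjusted p = 0.0055). Of 10 interferon regulatory factor genes, 2 were lower (1 with median-ratio scaling) and 4 were higher: Irf7, Irf9, Irf1 (log2 change 2.65, adjusted p = 1.9e-10) and Irf5 (log2 change 1.97, adjusted p = 1.7e-09). Irf3, which is present before infection and activated by phosphorylation, had 16.9, 15.7 and 16.7 FPKM in IFNb libraries, against 17.7, 14.9 and 21.3 FPKM in Control libraries and was not called, and its sign turned with median-ratio scaling (log2 change -0.11 in the FPKM as deposited and 0.03 scaled). Irf8, a factor of myeloid cells, stayed at 0.325 FPKM or less in all 6 libraries. Irf2bpl was lower (log2 change -0.81, adjusted p = 5.7e-05).

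Many sensors and nearly all measured effectors of antiviral defence rose. Of 14 nucleic acid sensor genes 8 were higher and 0 lower, with a median log2 change of 1.06. Dhx58 (LGP2), Ddx58 (RIG-I) and Ifih1 (MDA5) recognise double-stranded RNA in the cytosol. Dhx58 had 308, 279 and 256 FPKM in IFNb libraries, against 1.69, 2.53 and 1.62 FPKM in Control libraries (log2 change 6.59, SE 0.15, adjusted p = 2.5e-16). Ddx58 had 183, 191 and 188 FPKM in IFNb libraries, against 5.803, 5.799 and 6.06 FPKM in Control libraries (log2 change 4.77, SE 0.07, adjusted p = 2.7e-18). Ifih1 had 76.4, 91.4 and 96.01 FPKM in IFNb libraries, against 5.004, 5.36 and 2.65 FPKM in Control libraries (log2 change 4.09, SE 0.18, adjusted p = 6.8e-12). In all 3 sensors the lowest IFNb library stood above the highest Control library. Trex1, an exonuclease that clears cytosolic DNA, was also higher (log2 change 3.28, adjusted p = 2.0e-14). The conjugation system for Isg15 rose with it. Uba7, the E1 enzyme that activates Isg15, had 73.5, 67.1 and 70.1 FPKM in IFNb libraries, against 0.5603, 0.425 and 0 FPKM in Control libraries. Ube2l6, its E2 enzyme, had 213, 187 and 179 FPKM in IFNb libraries, against 34.5, 35.5 and 31.5 FPKM in Control libraries (log2 change 2.48, SE 0.08, adjusted p = 1.8e-14), and the ligase Trim25 had 66.6, 68.6 and 71.9 FPKM in IFNb libraries, against 4.21, 3.21 and 3.75 FPKM in Control libraries (log2 change 3.90, SE 0.11, adjusted p = 4.4e-15). In the authors' deposited table Uba7 had a log2 change of 0.60 and an adjusted p of 0.096, so the call for this gene differs from that made here (log2 change 5.77, adjusted p = 3.1e-15). Of the 6 genes of this list 5 were higher. Ube2e2 was lower in the FPKM as deposited (log2 change -0.18, adjusted p = 0.015) and not called with median-ratio scaling (adjusted p = 0.67), nor without Control 3 (adjusted p = 0.061) or IFNb 2 (adjusted p = 0.078).

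All 3 IFIT genes and all 9 OAS and RNase L genes rose, the OAS list with a median log2 change of 6.42, and 33 of 34 other antiviral effectors rose, with a median of 3.32. Rsad2 (viperin), an enzyme that makes a chain-terminating nucleotide, had 898, 1109 and 1139 FPKM in IFNb libraries, against 8.74, 8.15 and 6.804 FPKM in Control libraries (log2 change 6.88, SE 0.17, adjusted p = 9.9e-16). Ifitm3, which blocks the fusion of viruses with endosomes, had 3619, 3022 and 3345 FPKM in IFNb libraries, against 35.5, 27.5 and 22.003 FPKM in Control libraries (log2 change 6.85, SE 0.14, adjusted p = 7.6e-17). Ifi27l2b had 4114, 3292 and 4157 FPKM in IFNb libraries, against 28.6, 28.6 and 31.1 FPKM in Control libraries, and by mean FPKM it ranked 7 in IFNb and 3318 in Control. The lowest IFNb library was far above the highest Control library for each. Of 11 PARP and DTX genes 6 were higher and 1 lower. Parp9 and Dtx3l, which form a complex that modifies histones, changed by 3.83 and 3.87 on the log2 scale, while Parp12 and Parp14 changed by 3.75 and 3.68. Of 9 PML body genes 4 were higher, led by Sp100 (log2 change 5.20, adjusted p = 5.2e-13), Sp110 (log2 change 3.80, adjusted p = 2.8e-13), Sp140 (log2 change 2.55, adjusted p = 1.9e-11) and Daxx (log2 change 1.80, adjusted p = 4.0e-10). Of 19 TRIM and RNF ubiquitin ligases 8 were higher and 6 lower, and with median-ratio scaling 8 were higher and 3 lower. The higher ones were led by Trim21, an antibody receptor in the cytosol (log2 change 3.27), Trim34 (2.76), Trim5, which restricts retroviruses (2.30), and Rnf114 (2.18). The median of this list was -0.06.

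Genes of antigen presentation through MHC class I rose in large part, while the class II chains RT1-Ba, RT1-Bb, RT1-Da and RT1-Db1 stayed at 2.73 FPKM or less. Of 26 MHC class I chains, 23 were higher and 0 lower, with a median log2 change of 4.07. RT1-A2 had 1158, 1078 and 1103 FPKM in IFNb libraries, against 21.6, 23.6 and 23.3 FPKM in Control libraries (log2 change 5.55, SE 0.07, adjusted p = 1.2e-19). RT1-CE4 had 332, 324 and 339.6 FPKM in IFNb libraries, against 9.84, 10.3 and 11.4 FPKM in Control libraries (log2 change 4.85, SE 0.08, adjusted p = 5.3e-18). RT1-T24-3 had 215, 176 and 185 FPKM in IFNb libraries, against 3.68, 4.404 and 4.18 FPKM in Control libraries. The groups did not overlap in these chains. Of 16 immunoproteasome and peptide loading genes 13 were higher. Psmb8, an inducible catalytic subunit, had 628, 520.2 and 511 FPKM in IFNb libraries, against 14.6, 19.3 and 19.02 FPKM in Control libraries (log2 change 4.90, SE 0.11, adjusted p = 1.2e-16). Psmb9 and Psmb10, the other 2 inducible catalytic subunits, changed by 4.77 and 3.59, and Tap1, a chain of the peptide transporter, had 164, 142 and 169.7 FPKM in IFNb libraries, against 8.96, 9.23 and 9.62 FPKM in Control libraries. Every IFNb library was above every Control library for each of these.

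The constitutive proteasome rose as well, though by much less. Of 31 subunits 24 were higher and 0 lower, with a median log2 change of 0.37 against -0.16 over all genes, and with median-ratio scaling 29 were higher. Their summed level was 6048 to 6481 FPKM in IFNb libraries and 4571 to 4966 FPKM in Control libraries. Psmb2, a subunit of the catalytic core ring, had 496, 448 and 448 FPKM in IFNb libraries, against 244, 271 and 249.9 FPKM in Control libraries (log2 change 0.86, SE 0.06, adjusted p = 9.1e-09). Psma6, of the outer ring, had 500.5, 497 and 502 FPKM in IFNb libraries, against 303, 369.6 and 332 FPKM in Control libraries (log2 change 0.58, SE 0.07, adjusted p = 5.5e-06). Psmd14, the deubiquitinase of the lid, had 181, 208 and 199 FPKM in IFNb libraries, against 132, 158 and 124 FPKM in Control libraries (log2 change 0.51, SE 0.09, adjusted p = 2.5e-04), and Psma3 had 81.8, 120.3 and 95.2 FPKM in IFNb libraries, against 75.7, 66.6 and 63.1 FPKM in Control libraries. No overlap between groups was seen in these 4 subunits, although the gap was small for Psma3.

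Of 14 MHC class II genes 6 were higher and 1 lower. Ctss, the cathepsin that trims the invariant chain, had 21.98, 21.5 and 29.5 FPKM in IFNb libraries, against 0.0669, 0.135 and 0.599 FPKM in Control libraries (log2 change 4.33, SE 0.20, adjusted p = 1.3e-11). The invariant chain Cd74 had 4.14, 3.09 and 2.85 FPKM in IFNb libraries and was listed at 0 in all Control libraries (adjusted p = 1.2e-09). RT1-Da had 1.93, 2.32 and 2.73 FPKM in IFNb libraries, against 0, 0.0862 and 0 FPKM in Control libraries. RT1-Ba was listed at 0 in all Control libraries and reached 1.13 FPKM at most in IFNb libraries, and RT1-Bb (0.960 FPKM at most) and RT1-Db1 (1.03 FPKM at most) were likewise at 0 in Control. Ciita, the coactivator that switches on class II genes, was listed at 0 in all 6 libraries. RT1-DMa, a peptide exchange chain, had 9.703, 9.83 and 8.38 FPKM in IFNb libraries, against 9.35, 7.23 and 8.59 FPKM in Control libraries and was not called (adjusted p = 0.39). Ifi30, a lysosomal thiol reductase, fell (log2 change -0.60, adjusted p = 1.6e-05). The GTPases of the guanylate-binding and immunity-related families rose in 6 of 6 cases, with a median log2 change of 4.94. Gbp2 had 1196, 1174 and 1316 FPKM in IFNb libraries, against 16.99, 17.6 and 12.1 FPKM in Control libraries (log2 change 6.23, SE 0.10, adjusted p = 2.7e-18). Igtp and Irgm, which act on membranes around pathogens, changed by 5.05 and 4.83. The Gbp copies are similar in sequence, and single levels carry that uncertainty.

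Complement, chemokine and death genes moved in a selective way. Of 11 measured complement genes 7 were higher and 2 lower, with a median log2 change of 2.74. Cfb, a part of the alternative pathway convertase, had 273, 241 and 248 FPKM in IFNb libraries, against 1.03, 1.19 and 0.928 FPKM in Control libraries (log2 change 6.96, SE 0.15, adjusted p = 9.9e-17). C2 of the classical pathway had 98.1, 86.6 and 97.1 FPKM in IFNb libraries, against 2.44, 3.102 and 2.56 FPKM in Control libraries, and the proteases C1r and C1s changed by 4.24 and 3.89. Serping1, the inhibitor of C1r and C1s, had 104, 93.6 and 103 FPKM in IFNb libraries, against 10.4, 17.05 and 15.7 FPKM in Control libraries. C3, the central component, had 1.25, 1.44 and 2.35 FPKM in IFNb libraries, against 0.923, 0.965 and 1.18 FPKM in Control libraries and was not called (adjusted p = 0.077), although it was called with median-ratio scaling (adjusted p = 0.041). Cd59, which shields cells from the membrane attack complex, was lower, with 9.01, 7.47 and 8.18 FPKM in IFNb libraries, against 29.6, 36.8 and 34.7 FPKM in Control libraries (log2 change -1.91, SE 0.14, adjusted p = 8.4e-09). The IFNb libraries thus lay above Control for Cfb, C2, C1r, C1s and Serping1 and below it for Cd59, with no overlap in any of them.

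Of 20 chemokine genes 12 were higher and 1 lower (0 lower after median-ratio scaling), with a median log2 change of 0.92. Cxcl10 had 3601, 4759.5 and 4374 FPKM in IFNb libraries, against 36.6, 31.3 and 15.8 FPKM in Control libraries (log2 change 7.27, SE 0.25, adjusted p = 1.5e-13). The related CXCR3 ligands Cxcl11 and Cxcl9 stayed far lower, at 30.7, 29.9 and 35.5 FPKM in IFNb libraries, against 2.47, 1.28 and 0.174 FPKM in Control libraries for Cxcl11 and 9.98, 8.52 and 10.7 FPKM in IFNb libraries, against 0.566, 0 and 0 FPKM in Control libraries for Cxcl9. Ccl7, which draws monocytes, had 284, 236 and 371 FPKM in IFNb libraries, against 43.05, 35.5 and 47.8 FPKM in Control libraries (log2 change 2.77, SE 0.13, adjusted p = 1.1e-11), and Ccl12 had 22.2, 17.4 and 20.6 FPKM in IFNb libraries, against 0.483, 0 and 1.58 FPKM in Control libraries. Each of these 5 chemokines was higher in all IFNb libraries. Among 26 interleukin and cytokine signalling genes 6 were higher and 6 lower, and after median-ratio scaling 4 were lower. Il18bp, a decoy that binds interleukin 18, had 76.5, 59.3 and 64.2 FPKM in IFNb libraries, against 1.32, 2.19 and 0.721 FPKM in Control libraries (log2 change 4.85, SE 0.19, adjusted p = 7.6e-13). Tnfrsf1b, a receptor for TNF, rose (log2 change 1.29, adjusted p = 7.0e-06) and Lif, a cytokine of the interleukin 6 family, fell (log2 change -1.27, adjusted p = 1.8e-05). Of 11 adhesion and checkpoint genes 6 were higher and 1 lower. Cd274 (PD-L1), which restrains T cells, had 4.897, 6.22 and 9.14 FPKM in IFNb libraries, against 0, 0.745 and 0 FPKM in Control libraries (log2 change 2.65, SE 0.28, adjusted p = 1.4e-06). Cd47, which signals to phagocytes not to engulf, had 153, 171 and 155 FPKM in IFNb libraries, against 38.8, 42.9 and 44.7 FPKM in Control libraries, and Vcam1, which holds leukocytes, had 257, 266 and 287 FPKM in IFNb libraries, against 94.7, 96.6 and 91.6 FPKM in Control libraries. The IFNb libraries were above Control in all 3.

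The 17 NF-kB subunits and inhibitors held 5 higher and 4 lower genes, with a median of -0.01, and with median-ratio scaling 5 higher and 1 lower, with a median of 0.13. Tnfaip2 (log2 change 0.88, adjusted p = 6.3e-06) and the caspase inhibitor Birc3 (log2 change 0.63, adjusted p = 2.6e-04) were higher. Rela, the p65 subunit, was lower (log2 change -0.39, adjusted p = 0.0037) and was the lower one with median-ratio scaling (log2 change -0.25, adjusted p = 0.049). Of 31 cell death genes 9 were higher and 6 lower, and with median-ratio scaling 10 were higher and 3 lower. The lowest of them, Bbc3 (PUMA), which promotes apoptosis, had 9.32, 6.31 and 5.26 FPKM in IFNb libraries, against 9.39, 13.4 and 12.8 FPKM in Control libraries (log2 change -0.71, SE 0.17, adjusted p = 0.003). Casp1, the inflammatory caspase, was listed at 0 in all Control libraries and had 4.98, 8.91 and 8.61 FPKM in IFNb libraries (adjusted p = 1.5e-07). Casp12 had 10.1, 10.7 and 10.5 FPKM in IFNb libraries, against 0, 0 and 0.478 FPKM in Control libraries. Tnfsf10 (TRAIL), a ligand of death receptors, had 7.71, 8.62 and 9.62 FPKM in IFNb libraries, against 0, 0.08496 and 0 FPKM in Control libraries. These 3 higher genes were close to 0 in Control and modest in IFNb.

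**Figure D4:**
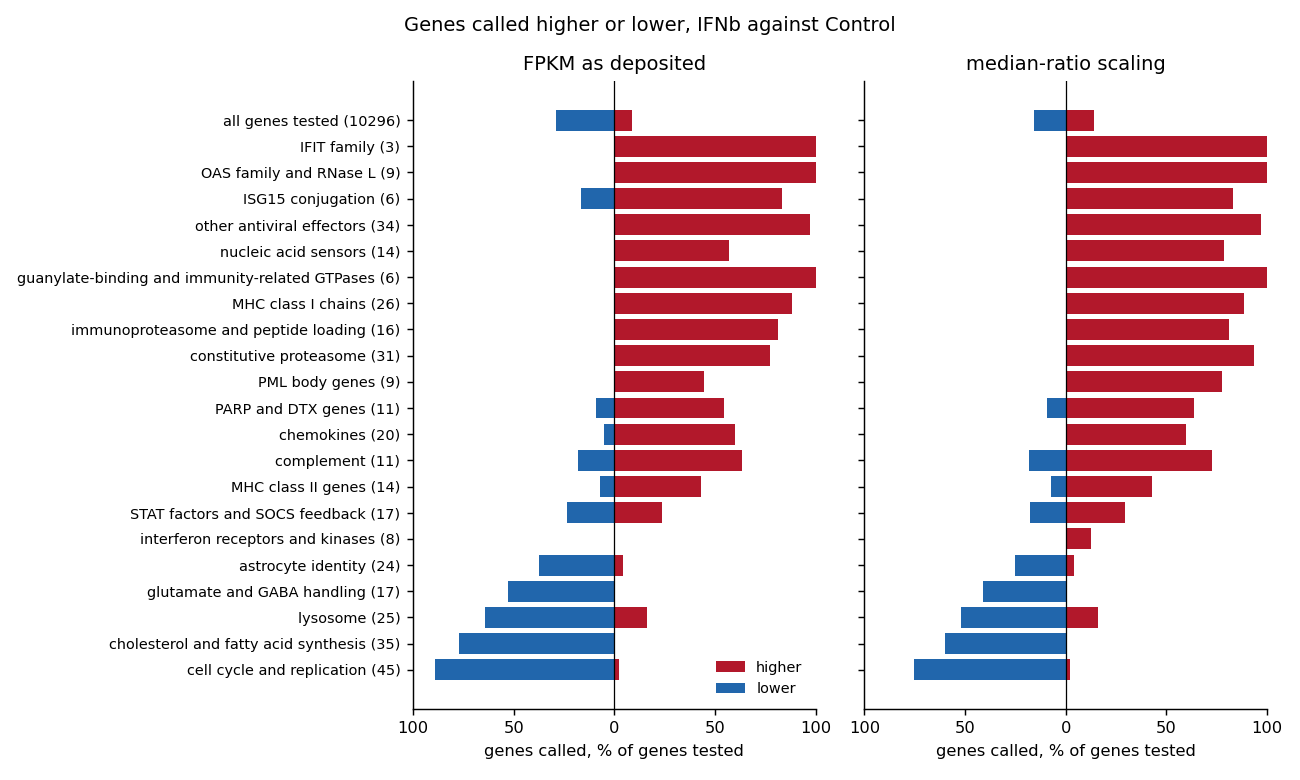
Percentage of the tested genes of each list that were higher (red, to the right) or lower (blue, to the left) in IFNb than in Control, from the FPKM as deposited (left panel) and after median-ratio scaling (right panel), with the number of genes tested in brackets. All genes tested show 8.86% higher and 29.1% lower in the left panel. The cell cycle list is lower in 40 of 45 genes on the left and 34 on the right.

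The genes that fell furthest included matrix, lipid and channel genes. Mgp, a matrix protein that inhibits BMP signals and calcification, had 15.6, 7.11 and 9.25 FPKM in IFNb libraries, against 74.3, 79.98 and 71.9 FPKM in Control libraries (log2 change -2.78, SE 0.46, adjusted p = 1.6e-04). Clec2l, a C-type lectin, had 1.42, 1.07 and 1.25 FPKM in IFNb libraries, against 9.35, 9.96 and 9.71 FPKM in Control libraries (log2 change -2.25, SE 0.14, adjusted p = 5.9e-10). Car3, a carbonic anhydrase, had 5.55, 4.07 and 2.49 FPKM in IFNb libraries, against 21.4, 18.04 and 18.5 FPKM in Control libraries (log2 change -2.05, SE 0.22, adjusted p = 1.7e-06). Separation of the groups was a condition for choosing these genes, and the libraries were most even in Clec2l. Chi3l1, a secreted chitinase-like protein of reactive astrocytes, had 31.4, 33.3 and 43.2 FPKM in IFNb libraries, against 109.9, 142 and 146 FPKM in Control libraries (log2 change -1.86, SE 0.12, adjusted p = 1.3e-09). Lpl, the lipoprotein lipase, had 2.095, 2.61 and 1.46 FPKM in IFNb libraries, against 11.2, 8.96 and 8.31 FPKM in Control libraries (log2 change -1.79, SE 0.16, adjusted p = 1.3e-07). Col11a1, a fibrillar collagen, had 1.72, 2.67 and 2.21 FPKM in IFNb libraries, against 9.62, 8.93 and 10.2 FPKM in Control libraries (log2 change -1.74, SE 0.13, adjusted p = 9.3e-09). By the same condition, all IFNb libraries were below all Control libraries in each of these. Kcnn2, a calcium-activated potassium channel, had 0, 0 and 20.7 FPKM in IFNb libraries, against 35.5, 40.7 and 31.8 FPKM in Control libraries (log2 change -3.72, SE 1.01, adjusted p = 0.0079). Since 2 IFNb libraries were listed at 0 and the other stood below every Control library by far less, the size of this change is uncertain. Ugt1a7c, a glucuronosyltransferase, had 0, 0 and 0.779 FPKM in IFNb libraries, against 1.38, 8.47 and 5.18 FPKM in Control libraries, and its call (adjusted p = 0.038) was lost with median-ratio scaling (adjusted p = 0.06). It was also lost without Control 2 (adjusted p = 0.14), Control 3 (0.094), IFNb 1 (0.092) or IFNb 2 (0.094).

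Fos, Atf3 and Gem, genes induced early by stimulation, were lower with IFNb. Fos, a subunit of AP-1, had 11.96, 9.02 and 14.97 FPKM in IFNb libraries, against 36.04, 39.97 and 48.95 FPKM in Control libraries (log2 change -1.73, SE 0.18, adjusted p = 8.8e-07). Atf3, a stress-induced factor, had 3.93, 4.82 and 3.41 FPKM in IFNb libraries, against 10.004, 28.3 and 30.2 FPKM in Control libraries (log2 change -2.10, SE 0.29, adjusted p = 2.5e-05). Gem, a small GTPase, had 2.94, 2.68 and 4.07 FPKM in IFNb libraries, against 10.4, 12.3 and 14.8 FPKM in Control libraries (log2 change -1.67, SE 0.14, adjusted p = 3.7e-08). The IFNb libraries were lower in all 3, again a condition of their choice, and for Atf3 Control 1 stood well below the other 2 Control libraries. Junb, Fosl2 and Dusp1, which belong to or restrain the same pathway, changed by -0.80, -0.90 and -1.23. In the list of FGF, EGF and MAP kinase feedback genes which holds Fos but neither Atf3 nor Gem, 9 of 27 were lower and 0 higher, beside 29.1% lower among all genes. With median-ratio scaling 6 of the 27 were lower and 1 higher, beside 1641 and 1473 of all 10296 genes. Stress factors did not move together. Ddit3 (CHOP), a factor of the integrated stress response, was higher, with 100.1, 88.6 and 112 FPKM in IFNb libraries, against 13.1, 21.4 and 22.5 FPKM in Control libraries (log2 change 2.37, SE 0.16, adjusted p = 2.2e-09). Trib3, a target of that response, was lower, with 2.43, 1.61 and 2.75 FPKM in IFNb libraries, against 4.25, 8.79 and 12.5 FPKM in Control libraries (log2 change -1.45, SE 0.28, adjusted p = 5.6e-04), and so was the kinase Eif2ak3 (PERK; log2 change -0.78, adjusted p = 1.2e-05). Of the 21 genes on the endoplasmic reticulum stress list 4 were higher and 5 lower (6 and 5 with median-ratio scaling).

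Astrocyte genes changed by moderate amounts. Gfap, the intermediate filament of astrocytes, had 148, 128 and 148 FPKM in IFNb libraries, against 421, 419 and 479.7 FPKM in Control libraries (log2 change -1.63, SE 0.08, adjusted p = 4.9e-11), and with median-ratio scaling its log2 change was -1.48. Vim, the other main filament gene, was higher, with 538, 486 and 529 FPKM in IFNb libraries, against 365, 300.3 and 392 FPKM in Control libraries (log2 change 0.56, SE 0.08, adjusted p = 3.1e-05). Timp1, an inhibitor of matrix proteases found in reactive astrocytes, had 746, 596 and 596 FPKM in IFNb libraries, against 148, 166 and 171 FPKM in Control libraries (log2 change 1.99, SE 0.09, adjusted p = 5.2e-12). Gfap fell while Vim and Timp1 rose, with no overlap between groups. Lcn2, a secreted protein of reactive astrocytes, had 92.7, 93.3 and 119 FPKM in IFNb libraries, against 67.9, 91.2 and 106 FPKM in Control libraries and was not called (adjusted p = 0.23). Of 24 astrocyte identity genes 1 was higher and 9 lower, beside 29.1% lower among all genes tested. With median-ratio scaling 6 of the 24 were lower, beside 1641 of all 10296 genes. Aldh1l1 was the higher one (log2 change 0.65, adjusted p = 1.0e-05). The lower ones were led by Ntsr2, a neurotensin receptor, with 33.4, 26.9 and 28.9 FPKM in IFNb libraries, against 67.2, 50.02 and 66.5 FPKM in Control libraries (log2 change -1.01, SE 0.13, adjusted p = 9.3e-06), then Atp1b2, a sodium pump subunit (log2 change -0.64, adjusted p = 1.6e-04), and S100b (log2 change -0.62, adjusted p = 2.9e-07). Aqp4, the water channel, had 28.3, 31.4 and 22.4 FPKM in IFNb libraries, against 32.5, 34.3 and 36.5 FPKM in Control libraries and was not called (adjusted p = 0.057).

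Transport of neurotransmitters was lower in part. Of 17 glutamate and GABA handling genes 9 were lower and 0 higher, with 7 lower after median-ratio scaling. Slc6a11 (GAT-3), an astrocyte GABA transporter, had 42.3, 37.5 and 32.3 FPKM in IFNb libraries, against 76.1, 60.2 and 65.1 FPKM in Control libraries (log2 change -0.83, SE 0.13, adjusted p = 7.5e-05). Slc38a3, which exports glutamine, had 82.9, 80.1 and 67.5 FPKM in IFNb libraries, against 151, 128 and 128 FPKM in Control libraries (log2 change -0.81, SE 0.10, adjusted p = 1.0e-05). Slc1a1, a glutamate transporter, had 5.44, 5.99 and 5.77 FPKM in IFNb libraries, against 9.81, 8.69 and 9.12 FPKM in Control libraries. No library of one group overlapped the other in these transporters. Slc1a2 (GLT-1), the main glutamate transporter of mature astrocytes, changed by -0.32 (adjusted p = 0.0056) and was not called with median-ratio scaling (log2 change -0.18, adjusted p = 0.12). Of 16 synaptogenic factors 4 were higher and 7 lower, beside 8.86% and 29.1% of all genes (4 and 5 with median-ratio scaling). Gpc4, a glypican that recruits AMPA receptors, had 17.6, 18.6 and 22.7 FPKM in IFNb libraries, against 6.67, 7.61 and 7.16 FPKM in Control libraries (log2 change 1.33, SE 0.11, adjusted p = 7.5e-08). Thbs1, a thrombospondin, was higher (log2 change 1.27, adjusted p = 1.1e-04), while Bdnf, a neurotrophin, was lower (log2 change -1.23, adjusted p = 0.0017). Both had low values. Thbs1 had 1.66, 1.33 and 2.62 FPKM in IFNb libraries, against 0, 0.180 and 0.345 FPKM in Control libraries. Bdnf had 0.102, 0 and 0.197 FPKM in IFNb libraries, against 1.61, 1.61 and 1.49 FPKM in Control libraries. Of 13 phagocytosis genes 2 were higher and 4 lower, beside 8.86% and 29.1% of all genes. With median-ratio scaling 3 of the 13 were higher and 3 lower, beside 1473 and 1641 of all 10296 genes. The 2 higher ones in the FPKM as deposited were the receptors Megf10, with 60.05, 58.2 and 62.3 FPKM in IFNb libraries, against 33.2, 26.5 and 31.4 FPKM in Control libraries, and Axl, with 73.1, 65.96 and 76.3 FPKM in IFNb libraries, against 41.5, 33.4 and 36.99 FPKM in Control libraries. Both receptors were above Control in every IFNb library. Pros1, a ligand of Axl, fell (log2 change -0.61, adjusted p = 6.1e-04), as did the engulfment factor Dock1 (log2 change -0.51, adjusted p = 4.1e-05).

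Proliferation genes fell broadly. Of 45 cell cycle and replication genes 40 were lower and 1 higher, with a median log2 change of -0.84, and 34 were lower with median-ratio scaling. Their summed level was 861 to 956 FPKM in IFNb libraries and 1329 to 1442 FPKM in Control libraries. Nusap1, a spindle protein, had 4.05, 3.55 and 3.16 FPKM in IFNb libraries, against 12.7, 9.397 and 10.2 FPKM in Control libraries (log2 change -1.36, SE 0.15, adjusted p = 2.8e-06). Ccna2, cyclin A2, had 5.72, 7.05 and 5.89 FPKM in IFNb libraries, against 19.4, 18.03 and 14.3 FPKM in Control libraries (log2 change -1.33, SE 0.17, adjusted p = 1.4e-05). Ccnf, cyclin F, had 1.67, 0.857 and 0.52995 FPKM in IFNb libraries, against 3.66, 3.87 and 4.42 FPKM in Control libraries (log2 change -1.34, SE 0.22, adjusted p = 1.4e-04). All IFNb libraries were below all Control libraries in these 3 genes. Of 15 CDK inhibitor and p53 target genes 8 were lower and 1 higher, beside 29.1% and 8.86% of all genes (4 and 1 with median-ratio scaling). Cdkn1a (p21), an inhibitor of the cycle, was among the lower ones (log2 change -0.65, adjusted p = 0.0017), and Gadd45g, a growth arrest gene, was the higher one (log2 change 0.62, adjusted p = 0.0032).

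Lipid and lysosome genes were lower as well. Of 35 cholesterol and fatty acid synthesis genes 27 were lower and 0 higher (median -0.46), and 21 were lower with median-ratio scaling. Tm7sf2, a sterol reductase, had 75.9, 77.9 and 89.1 FPKM in IFNb libraries, against 152, 159.6 and 176 FPKM in Control libraries (log2 change -0.997, SE 0.09, adjusted p = 1.0e-07), and Hsd17b7, a later enzyme of the pathway, had 22.6, 25.8 and 27.4 FPKM in IFNb libraries, against 45.4, 45.2 and 47.6 FPKM in Control libraries (log2 change -0.85, SE 0.07, adjusted p = 7.6e-08). The groups were separate in both. Of 25 lysosome genes 16 were lower and 4 higher (median -0.35), and 13 were lower with median-ratio scaling. Npc1, which moves cholesterol out of lysosomes, had 4.44, 4.61 and 3.92 FPKM in IFNb libraries, against 7.65, 9.46 and 8.78 FPKM in Control libraries (log2 change -0.85, SE 0.15, adjusted p = 2.8e-04), Ctsc, a cathepsin, changed by -0.72, and Tfeb, the factor that drives lysosome genes, changed by -0.58. The highest member was Ctss, described above. Of 19 apolipoprotein and lipid efflux genes 5 were higher and 6 lower under both scalings, and the lowest was Lpl, described above. The highest was Apol9a, which had 253, 241 and 266 FPKM in IFNb libraries, against 1.65, 1.56 and 0.168 FPKM in Control libraries (log2 change 6.99, SE 0.22, adjusted p = 2.4e-14), and Apol3 changed by 3.16. Lcat, which esterifies cholesterol on lipoproteins, had 22.7, 19.9 and 20.6 FPKM in IFNb libraries, against 4.95, 8.01 and 3.22 FPKM in Control libraries. These 3 were higher in all IFNb libraries.

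Counts of lower genes in glycolysis and respiration depended on the scaling. Of 21 glycolysis and lactate genes 7 were lower and 1 higher, beside 29.1% and 8.86% of all genes. With median-ratio scaling 4 of the 21 were lower and 2 higher, beside 1641 and 1473 of all 10296 genes. Of 33 respiratory chain genes 13 were lower and 1 higher, and with median-ratio scaling 5 were lower and 2 higher. Pfkfb3, which sets the level of an activator of glycolysis, had 15.5, 13.8 and 15.2 FPKM in IFNb libraries, against 32.5, 26.99 and 37.4 FPKM in Control libraries (log2 change -1.06, SE 0.12, adjusted p = 1.8e-06), and Pkm, pyruvate kinase, had 877, 791 and 805 FPKM in IFNb libraries, against 1217, 1205 and 1313 FPKM in Control libraries (log2 change -0.59, SE 0.06, adjusted p = 1.1e-06). Both were lower in each IFNb library. Of 20 aminoacyl tRNA synthetases 8 were lower and 2 higher, but with median-ratio scaling 1 was lower and 3 were higher. Kars, the lysine enzyme, stood out with 135, 123 and 116 FPKM in IFNb libraries, against 69.7, 70.6 and 69.5 FPKM in Control libraries (log2 change 0.82, SE 0.06, adjusted p = 1.5e-08), while Eprs was lower (log2 change -0.42, adjusted p = 4.3e-05).

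Several secreted and matrix genes changed. Of 26 matrix protease and inhibitor genes 3 were higher and 9 lower (5 and 8 with median-ratio scaling). This and the other list counts of the paragraph stand beside 8.86% higher and 29.1% lower among all genes. Plau, the urokinase plasminogen activator, had 94.3, 70.6 and 73.6 FPKM in IFNb libraries, against 41.4, 23.6 and 29.3 FPKM in Control libraries (log2 change 1.34, SE 0.16, adjusted p = 5.1e-06). Mmp11, a metalloproteinase, was listed at 0 in all IFNb libraries and had 3.09, 3.31 and 4.64 FPKM in Control libraries (adjusted p = 0.0089). It was also listed at 0 in single libraries of other groups, with 5.64, 4.45 and 0 FPKM in IFNg libraries and 0, 3.01 and 3.64 FPKM in TIC libraries. The authors' deposited table gives Mmp11 a log2 change of the other sign, 0.52, and does not call it (adjusted p = 0.27). Of 11 genes of the insulin-like growth factor system 2 were higher and 7 lower, and with median-ratio scaling 2 were higher and 2 lower. Igfbp3, a carrier of these factors, had 83.7, 81.5 and 94.4 FPKM in IFNb libraries, against 42.2, 54.8 and 62.99 FPKM in Control libraries, and Igfbp2 had 1658, 1467 and 1580.4 FPKM in IFNb libraries, against 1173, 1051 and 1085 FPKM in Control libraries. Both binding proteins were higher with IFNb, and Igfbp5 was the lowest of the list (log2 change -1.08, adjusted p = 2.4e-05). Id3, a target of BMP signals, had 35.5, 30.3 and 46.7 FPKM in IFNb libraries, against 14.2, 12.1 and 19.3 FPKM in Control libraries (log2 change 1.25, SE 0.16, adjusted p = 9.4e-06), and Sox4, a factor of immature cells, had 13.5, 15.6 and 12.4 FPKM in IFNb libraries, against 23.7, 26.4 and 24.5 FPKM in Control libraries (log2 change -0.81, SE 0.09, adjusted p = 3.6e-06). Of 24 antioxidant and metallothionein genes 5 were higher and 10 lower (7 and 8 with median-ratio scaling). Mt2A, a metallothionein that binds zinc, had 882, 638 and 987 FPKM in IFNb libraries, against 384, 304 and 354 FPKM in Control libraries (log2 change 1.24, SE 0.14, adjusted p = 3.6e-06). The antioxidant genes Srxn1 (log2 change -0.95, adjusted p = 1.3e-04) and Slc7a11, the cystine carrier (log2 change -0.87, adjusted p = 0.003), were lower. Of 18 heat shock chaperones 3 were higher and 4 lower (5 and 2 with median-ratio scaling). Dnajb1 and Cryab were higher (0.74 and 0.64), and Hspa2 was lower (log2 change -0.96, adjusted p = 7.3e-06). Hspb1 had 2.77, 4.02 and 6.59 FPKM in IFNb libraries, against 5.11, 13.6 and 17.01 FPKM in Control libraries (log2 change -1.16, SE 0.32, adjusted p = 0.0091), and its call was lost without Control 3 (adjusted p = 0.055) and with a fit to the 6 libraries alone (adjusted p = 0.072). Of 12 angiogenic factors 2 were higher and 2 lower (3 and 2 with median-ratio scaling), among which Pdgfa was higher (0.60) and Vegfb was lower (-0.50).

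Markers of other cells did not all stay level. Cnp, an enzyme listed as an oligodendrocyte marker, had 383, 346 and 327 FPKM in IFNb libraries, against 168, 133 and 152 FPKM in Control libraries (log2 change 1.22, SE 0.09, adjusted p = 1.7e-08), while Ugt8, a lipid enzyme of the same list, was lower, with 0.753, 0.705 and 0.953 FPKM in IFNb libraries, against 2.07, 1.91 and 1.68 FPKM in Control libraries (log2 change -0.68, SE 0.18, adjusted p = 0.0069), though not with a pseudocount of 0.1 (adjusted p = 0.13). Mbp and Mog of this list stayed at 2.41 FPKM or less in all 6 libraries and were not called. The 5 measured markers summed to 330.5 to 391 FPKM in IFNb libraries and 138.5 to 175 FPKM in Control libraries. Of 4 measured markers of oligodendrocyte precursors 0 were higher and 1, Pdgfra, was lower (log2 change -0.67, adjusted p = 0.0015), beside 29.1% lower among all genes. These 4 summed to 896.5 to 1067 FPKM in IFNb libraries and 875 to 1116 FPKM in Control libraries. Tagln, listed with pericytes and fibroblasts, had 94.5, 71.4 and 68.03 FPKM in IFNb libraries, against 44.01, 28.96 and 32.1 FPKM in Control libraries (log2 change 1.14, SE 0.15, adjusted p = 1.2e-05), while Dcn of that list was at 0 in all 6 libraries, and the list summed to 70.0 to 96.9 FPKM in IFNb libraries and 33.5 to 49.1 FPKM in Control libraries. Of 6 neuron markers 4 were lower, and 2 with median-ratio scaling, where Syn1 (adjusted p = 0.06) and Map2 (adjusted p = 0.12) were not called. The call of Syn1 was also lost without Control 2 (adjusted p = 0.11) or IFNb 1 (0.11), and that of Map2 without Control 1 (0.074) or IFNb 2 (0.066). Their summed level was 27.6 to 32.1 FPKM in IFNb libraries and 48.5 to 60.8 FPKM in Control libraries. Snap25 (log2 change -1.06, adjusted p = 1.6e-05) and Tubb3 were called under both scalings, and Tubb3 had 0.682, 0.319 and 0.253 FPKM in IFNb libraries, against 0.908, 2.32 and 2.53 FPKM in Control libraries. The part of other cells in the results was not tested. Rn18s, the 18S ribosomal RNA, had 135, 88.9 and 116 FPKM in IFNb libraries, against 36.7, 41.99 and 77.1 FPKM in Control libraries (log2 change 1.16, SE 0.38, adjusted p = 0.024). Its call was lost without Control 1, Control 2, IFNb 1 or IFNb 3 (adjusted p = 0.096, 0.073, 0.078 and 0.063), and its part in the other results was not tested.

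IFNb and IFNg were then compared directly, with no Control library in the contrast. Of the 10296 genes, 2581 (25.1%) differed, 594 (5.77%) higher and 1987 (19.3%) lower in IFNb. Genes of the type I response were among the largest differences. Ifit3 had 2021, 2258 and 2416 FPKM in IFNb libraries, against 15.6, 15.7 and 10.7 FPKM in IFNg libraries (log2 difference 7.24, adjusted p = 4.2e-10), and Irf7 had 2451, 2269.8 and 2289 FPKM in IFNb libraries, against 18.3, 16.3 and 9.43 FPKM in IFNg libraries (log2 difference 7.27, adjusted p = 1.9e-13). Oasl, an OAS-like protein, differed by 6.16, and Oas1k by 6.10. Lgals5 had 85.2, 76.7 and 74.4 FPKM in IFNb libraries, against 0.6804, 0.389 and 0 FPKM in IFNg libraries. In all of these the lowest IFNb library exceeded the highest IFNg library, which was a condition for picking genes at the ends of this contrast. The OAS list (9 of 9 genes) and 32 of 34 other antiviral effectors were higher with IFNb.

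MHC class II genes ran the other way, with 9 of 14 lower and 1 higher in IFNb. Cd74 had 4.14, 3.09 and 2.85 FPKM in IFNb libraries, against 168, 160.0 and 160.1 FPKM in IFNg libraries (log2 difference -5.24, adjusted p = 1.6e-14). RT1-Da had 1.93, 2.32 and 2.73 FPKM in IFNb libraries, against 59.01, 62.9 and 56.3 FPKM in IFNg libraries, and RT1-Db1 had 0.364, 0.357 and 1.03 FPKM in IFNb libraries, against 25.6, 26.2 and 22.1 FPKM in IFNg libraries. The coactivator Ciita was listed at 0 in all IFNb libraries and differed from IFNg (adjusted p = 1.2e-05), and Irf8 was lower (log2 difference -3.57, adjusted p = 7.6e-12). Ubd, a ubiquitin-like modifier also called FAT10, had 14.3, 10.3 and 18.4 FPKM in IFNb libraries, against 221, 285 and 288 FPKM in IFNg libraries (log2 difference -4.14, adjusted p = 1.7e-10). The IFNg libraries were higher in each of these, which was a condition for those picked at the low end of this contrast. Mgp was lower in IFNb as well (log2 difference -5.01, adjusted p = 3.2e-07), with 15.6, 7.11 and 9.25 FPKM in IFNb libraries, against 443, 301 and 345 FPKM in IFNg libraries. Several genes with high levels in both groups did not pass the test between them, among them Ifi47 (log2 difference -0.21, adjusted p = 0.44) and Gbp2 (0.09, adjusted p = 0.53). Irf1 was lower with IFNb (log2 difference -1.50, adjusted p = 1.1e-06), and so were Psmb9 (-0.57), Cxcl9 (-2.77) and Serping1 (-1.47). Ddit3 was higher (log2 difference 2.59, adjusted p = 1.4e-09), with 100.1, 88.6 and 112 FPKM in IFNb libraries, against 14.2, 16.4 and 16.9 FPKM in IFNg libraries. With median-ratio scaling, 931 genes were higher and 1073 lower, so 46.5% of the called genes were higher, against 23.01% in the FPKM as deposited. The labels give the 2 interferons in different units, and the workbook's legend exchanges their doses, so the doses cannot be called matched.

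Whether the response to IFNb was the same in the presence of TIC was tested as an interaction, the log2 change with IFNb on TIC minus the log2 change with IFNb alone. It was called for 1629 genes (15.8%), of which 737 (7.16%) were higher and 892 (8.66%) lower. The genes picked for this contrast were the 6 highest and 6 lowest called interactions among genes without overlap. This held both between IFNb and Control and between IFNb with TIC and TIC. Atf3, with an interaction of 2.50 (adjusted p = 5.1e-04), was thus left out, since IFNb with TIC overlapped TIC. Ubd had 14.3, 10.3 and 18.4 FPKM in IFNb libraries, against 1.14, 1.45 and 0.327 FPKM in Control libraries, and 318, 453 and 388 FPKM with IFNb and TIC, against 4.65, 5.93 and 3.81 FPKM with TIC (interaction 3.10, SE 0.31, adjusted p = 3.9e-06). Cxcl9 had 167, 210.3 and 184 FPKM with IFNb and TIC, against 2.44, 1.62 and 2.199 FPKM with TIC (interaction 2.73), and Cxcl11 had 669.8, 726 and 630.1 FPKM with IFNb and TIC, against 6.48, 5.07 and 7.15 FPKM with TIC (2.58). The gain from IFNb was thus larger on the mix for these genes, although the interactions of Cxcl9 and Cxcl11 did not pass with a pseudocount of 0.1 (adjusted p = 0.53 and 0.11). Gfap, which fell with IFNb alone, had 259, 278 and 323 FPKM with IFNb and TIC, against 211, 225 and 217 FPKM with TIC (interaction 2.02, SE 0.12, adjusted p = 6.8e-09). That every library with both lay above every TIC library was a condition for picking genes of this contrast. The mean of Gfap was 287 FPKM with IFNb and TIC and 218 FPKM with TIC, both below the 440 FPKM of Control. Rab3b, a small GTPase of vesicle release, had 314, 275 and 277 FPKM in IFNb libraries, against 158, 130.3 and 141 FPKM in Control libraries, and 104, 99.04 and 113 FPKM with IFNb and TIC, against 8.19, 13.8 and 9.15 FPKM with TIC (interaction 2.25). Angptl4, a lipase inhibitor, had 2.18, 1.29 and 2.55 FPKM in IFNb libraries, against 5.78, 6.24 and 8.09 FPKM in Control libraries, and 16.1, 16.005 and 17.1 FPKM with IFNb and TIC, against 6.94, 8.42 and 7.91 FPKM with TIC (interaction 2.36).

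Other genes had a negative interaction. Ifitm3 had 3091, 3361 and 3514 FPKM with IFNb and TIC, against 316, 294 and 307 FPKM with TIC (interaction -3.41, SE 0.20, adjusted p = 6.8e-09). Gbp2 had 2636, 2622 and 2603 FPKM with IFNb and TIC, against 291, 314 and 327 FPKM with TIC (interaction -3.16), and Gbp4 had 32.1, 44.4 and 36.9 FPKM in IFNb libraries, against 0.463, 0.641 and 0.308 FPKM in Control libraries, and 28.5, 23.9 and 23.2 FPKM with IFNb and TIC, against 4.99, 4.95 and 4.16 FPKM with TIC (interaction -2.52). TIC libraries were above Control libraries for these 3 genes. With IFNb and TIC, Gbp2 was above its level with IFNb alone, Gbp4 was below it and Ifitm3 overlapped it. Ccl7 had 4387, 4766 and 4688 FPKM with IFNb and TIC, against 3314, 3241 and 3746 FPKM with TIC (interaction -2.35), and Gchfr, a regulator of tetrahydrobiopterin synthesis, had 8.498, 8.34 and 9.37 FPKM in IFNb libraries, against 10.5, 13.8 and 15.8 FPKM in Control libraries, and 16.6, 21.5 and 14.1 FPKM with IFNb and TIC, against 118, 114 and 130.3 FPKM with TIC (interaction -2.20), lower with IFNb in both settings. Rn18s had 31.3, 66.1 and 32.4 FPKM with IFNb and TIC, against 129.6, 127 and 159 FPKM with TIC (interaction -2.90), lower with IFNb and TIC than with TIC. Of 31 constitutive proteasome genes 20 had a lower interaction and 0 a higher one, and of 45 cell cycle genes 26 had a higher and 2 a lower one. The cell cycle genes Top2a, Nusap1 and Ccna2 had means of 0.948, 1.26 and 2.38 FPKM with TIC, against 11.1, 10.8 and 17.2 FPKM in Control. On the log2(FPKM + 1) scale such low levels leave little room for a further fall with IFNb. The part of this limit in the interactions was not tested. The interaction tests use the same IFNb and Control libraries as the comparison above.

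**Figure D5:**
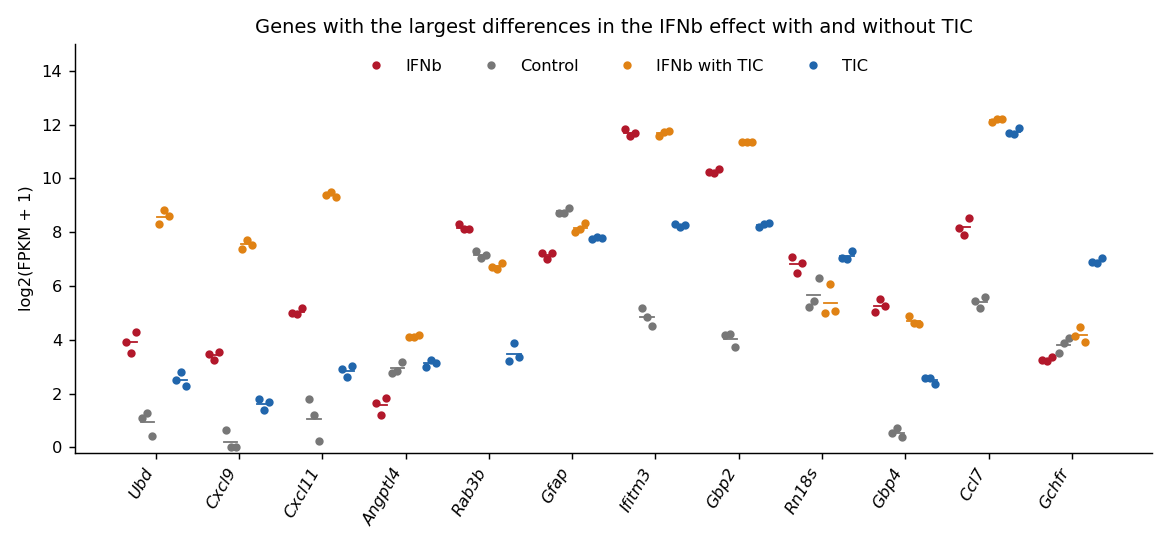
Levels of 12 genes with large interactions, as log2(FPKM + 1), with each library as a point and the group mean as a line, in the order IFNb, Control, IFNb with TIC and TIC (3 libraries per group). They are the 6 highest and 6 lowest among genes without overlap between IFNb and Control or between IFNb with TIC and TIC. For Gfap, IFNb is below Control (log2 change -1.63) while IFNb with TIC is above TIC, and the interaction is 2.02.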

How the data were processed

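RNA of 18 libraries was sequenced; the libraries of IFNb and Control are the subject here, and all 18 entered the fit to share an estimate of spread. The tools DESeq2, HISAT2 and StringTie and the mouse build mm10 appear, without versions, per the submitters' processing notes, although the table carries rat Ensembl identifiers. Per the labels, libraries were made with SMART-seq HT and Nextera XT kits. The authors deposited FPKM per library and, for each comparison with Control, log2 fold changes and adjusted p-values. In the IFNb log2 column 120 cells held spreadsheet error text and were read as missing.

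Computed here: 3 of 10434 rows without a gene name were dropped (at most 0.0120% of a library's FPKM), and 17 symbols that a spreadsheet had turned into numbers were handled, 15 of them under their Ensembl identifier. Genes with 1 FPKM in 3 libraries were tested with limma 3.58.1 in R 4.3.3 on log2(FPKM + 1), fitting a mean for each group (eBayes with trend), with two-sided p-values adjusted by Benjamini-Hochberg. The script was tested on simulated data. Depth is not known, so no counting error is given. Named genes are the 12 highest and 12 lowest called log2 changes of at least 1 in size, with a mean of 5 FPKM in a group and no overlap, the 4 largest called members of each list, members of the receptor, STAT, IRF, ISG15, IFIT and class II lists, 13 set genes, and 6 at each end of the other contrasts, besides markers of other cells; not all are printed, and some are not reported here. The genes at each end of the other contrasts met the same conditions within their own groups. For the interaction, this meant no overlap between IFNb and Control, nor between IFNb with TIC and TIC. Members and lists were chosen with earlier results of these data known. Alternatives were a pseudocount of 0.1, no filter, a mean of 5 FPKM, median-ratio and TPM scaling, the compared groups alone, quality weights, a replicate block, no trend, and each library left out.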

Additional observations from a re-analysis of the deposited data

Results flagged for a closer look

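The effect of IFNb in the presence of TIC differed from its effect alone by the interaction test for 737 genes upward and 892 downward (limma, adjusted p under 0.05). The differences, as IFNb with TIC minus TIC less IFNb minus Control on the log2 scale, were 3.10 for Ubd (adjusted p = 3.9e-06), 2.73 for Cxcl9 (adjusted p = 1.7e-07), 2.58 for Cxcl11 (adjusted p = 7.6e-05) and 2.36 for Angptl4 (adjusted p = 1.9e-06). They were 2.25 for Rab3b (adjusted p = 2.5e-07) and 2.02 for Gfap (adjusted p = 6.8e-09). In the other direction they were -3.41 for Ifitm3 (adjusted p = 6.8e-09), -3.16 for Gbp2 (adjusted p = 3.4e-10) and -2.90 for Rn18s (adjusted p = 0.0016). Gbp4 differed by -2.52 (adjusted p = 1.3e-07), Ccl7 by -2.35 (adjusted p = 1.9e-07) and Gchfr by -2.20 (adjusted p = 1.6e-06). Groups of 3 libraries are too small for a test of single outlying libraries.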

How the results depend on the processing

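Of 176 called genes named here, 168 kept the call and the direction in every alternative that tested them, 8 lost the call in 1 or more alternatives and 0 reversed. Many of these were picked for large called changes, so they do not stand for all called genes. Of all 3909 genes called against Control, 2552 kept call and direction with median-ratio scaling and 2823 with only the groups compared. With median-ratio scaling, genes called against Control numbered 1473 higher, 1641 lower and 107 lower by a log2 change of 1 or more, and genes called against IFNg 931 higher and 1073 lower. Genes lower by 1 or more against Control numbered 393 with a pseudocount of 0.1, 99 with a mean of 5 FPKM or more and 339 with TPM scaling. With only the groups compared, 711 genes were higher and 2174 lower against Control, and 1313 genes were lower than with IFNg. Among genes that were not called, the sign of Irf3 turned with median-ratio scaling (0.031) and without Control 3, that of Jak1 with TPM scaling (-0.0297) and without Control 1, and that of Tyk2 with TPM scaling (-0.040) and without Control 2, IFNb 1 or IFNb 3. With each library left out, their log2 changes ran over -0.230 to 0.0156 (Irf3), -0.064 to 0.076 (Jak1) and -0.126 to 0.115 (Tyk2). The causes were not tested. With each library left out, the genes called higher against Control numbered 798 to 888 and lower 2371 to 2769. With a replicate block, 913 genes were higher and 3002 lower against Control. Same-numbered libraries of IFNb and Control did not deviate together (r = 0.000478, 0.118 and 0.0299). Such correlations cannot tell whether libraries of 1 number share a culture, litter or animal. The interactions of Cxcl9 (0.73) and Cxcl11 (1.73) were not called with a pseudocount of 0.1. The depth of the libraries is not known, and values near 0 FPKM, where several strong responders stood in Control, carry the least certain fold changes.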

Other observations

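The log2 changes in the authors' deposited table were close to those from FPKM for most strong responders but not for all. Of 72 genes higher by 4 or more that have a log2 value in the authors' deposited table, 48 lay within 1 of the value from FPKM, 22 were lower by more than 1 and 2 were higher by more than 1. For Ifit3 the authors' deposited table gives 3.11, and the FPKM give 9.09, with Control values of 7.29, 4.19 and 0.578 FPKM. For Oas1a the authors' deposited table gives 1.56, and the FPKM give 8.37, with Control values of 1.85, 0.699 and 0 FPKM. For Oasl, whose Control values were 1.41, 1.45 and 0.606 FPKM, the authors' deposited table gives 7.66, and the FPKM give 7.03. Over 9966 genes the authors' deposited table calls 1585 higher and 1219 lower. Of these genes 853 are higher and 1196 lower in both analyses, and 2 are called in opposite directions, while 43 higher and 1742 lower here are not called in the authors' deposited table, and 730 that it calls higher and 23 that it calls lower are not called here. Besides Uba7, genes called here but not there include Tnfsf10 (log2 change 0.68 there, adjusted p = 0.069), Stat3 (-0.14, 0.17) and Bdnf (-0.48, 0.35). Others are Rela (-0.245, 0.052), Bbc3 (-0.42, 0.081), Eprs (-0.21, 0.053) and Map2 (-0.19, 0.24). Axl has -0.014 there, without an adjusted p. Ddit3 has 0.96 there (adjusted p = 0.036), against 2.37 from FPKM. The median log2 change in the authors' deposited table is 0.016.

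The Control libraries were not alike in the strong responders. Among the 69 of the 74 genes higher by 4 or more without tied values, Control 3 was the lowest Control library in 36 (52.2%) and Control 1 the highest in 30 (43.5%), whereas over all genes tested without ties Control 3 was the lowest in 31.7% and Control 1 the highest in 32.5%. The 74 genes summed to 539, 522.5 and 469 FPKM in Control 1, Control 2 and Control 3. LOC257642 was listed at 0 in all IFNb libraries and had 410.2, 0 and 0 FPKM in Control libraries, with 382, 339 and 284 FPKM in IFNg libraries.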
